A study of Homo sapiens with 4 samples.

Results

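The genes described here encode proteins that bind the growing ends of microtubules, and the heavy and light chains of cytoplasmic dynein. There are 10 of them, MAPRE1, MAPRE2, MAPRE3, CLIP1, DYNLRB1, DYNLL1, DYNLL2, DYNLT1, DYNLT3 and DYNC1H1, out of 18417 genes with a probe set that the platform annotation gives to exactly 1 gene. They were picked by name, and the pick followed an earlier look at the same arrays in which MAPRE3 and DYNLRB1 stood out. The differences from the scrambled array are therefore given as a description, with no test. For each gene the brightest probe set by its mean over the arrays was read on the log2 scale, and all 10 passed the filter on dim genes, a mean log2 intensity of 6.78, which kept 13813 genes.

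The series used DAOY, an established human medulloblastoma cell line, on 4 whole-transcript arrays. Of these, 3 came from cells given lentivirus with a short hairpin RNA against ZFX, an X-linked zinc finger transcription factor (hairpins H2, H3 and H4, genotype ZFX KD, 1 array each). The other array came from cells given a scrambled hairpin without a target (SCR, genotype Ctrl). All 4 samples shared the lentiviral exposure of 16 to 24 hours, 48 hours of recovery and about 48 hours in 2 ug/mL puromycin, which kills untransduced cells, so each sample is a selected pool and not a clone. No time before selection and no untransduced culture were analysed here.

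Microtubules grow and shrink mainly at their plus ends. End-binding proteins recognise the growing end and recruit a network of other plus-end tracking proteins, among them CLIP1. Cytoplasmic dynein walks the other way, toward minus ends. Its heavy chain carries the motor, and 3 kinds of light chain, known as roadblock, LC8 and Tctex types, dock on the intermediate chains of the complex. In dividing cells these proteins take part in building and placing the spindle, and in neurons they serve growth cones and axonal transport.

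ZFX read 745, 750 and 996 with H2, H3 and H4, against 1429.6 on the scrambled array, so the targeted transcript was at 52.1%, 52.4% and 69.6% of the scrambled level. Of 11 neural and medulloblastoma markers, 9 were above the filter, among them VIM, ZIC1, ZIC2, PAX6 and OTX2. NES and GLI1 were below it, and so were all 3 blood markers with a probe set. The H2 array stood furthest from the scrambled one (r = 0.9921 across probe sets, against 0.9962 for H3 and 0.9951 for H4, where probe sets are not independent), and a mean that moves by over 1.5 times when 1 hairpin is left out is given below without that hairpin too. Nothing in the labels says that transductions were repeated, so an SD over hairpins holds the differences between hairpins and leaves out the error of the lone scrambled array. A bulk array cannot tell a change in every cell from a change in the share of cells that express a gene.

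MAPRE3 and DYNLRB1 were the 2 of these genes that stood at least 1.5-fold above the scrambled array with every hairpin. Among all genes tested, 7 did so (0.0507%), and DYNLRB1 and MAPRE3 took places 6 and 7 when genes were ordered by the smallest of their 3 differences. Since they were chosen from this contrast, that share says nothing more about them. DYNLL1 was slightly higher with all 3 hairpins by its brighter probe set, though not by its dimmer one. DYNLT1 and DYNC1H1 were lower with all 3, and the other 5 genes had hairpins on either side of the scrambled array. Across all genes 16.9% were higher and 30.6% lower with every hairpin, and 52.5% were higher with some hairpins and lower with others. Centring each array on its median moved these shares to 23.6% higher and 23.3% lower, and quantile normalization to 22.0% and 25.0%, while the same 3 and 2 of the 10 genes remained higher and lower. None of the 10 was 1.5-fold lower with every hairpin, where 0.311% of all genes were. The median of the 10 mean log2 differences was -0.095, against -0.035 over all genes tested.

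**Figure D1:**
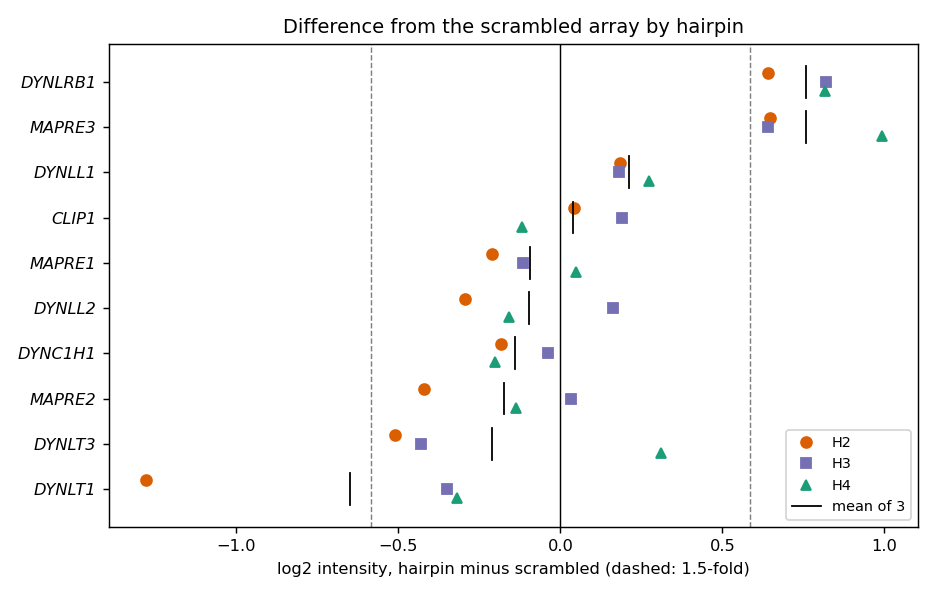
Log2 intensity with each anti-ZFX hairpin minus that on the scrambled array (horizontal axis) for the 10 genes, ordered by their mean. Each symbol is 1 array, the black bar is the mean of 3 and the dashed lines mark 1.5-fold; DYNLRB1 and MAPRE3 lie beyond the right-hand line with all 3 hairpins, and DYNLT1 lies beyond the left-hand one with H2 at -1.28.

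The end-binding family is known as EB1, EB2 and EB3 for the products of MAPRE1, MAPRE2 and MAPRE3. MAPRE3, whose product is known from neurons and muscle, read 1004, 999 and 1275 with H2, H3 and H4, against 641 on the scrambled array. The scrambled array was the lowest of the 4, and H4 was the highest. The ratios were 1.57-, 1.56- and 1.99-fold, with a mean log2 difference of 0.76 ± 0.20 (SD, n = 3 hairpins). That mean was 0.82 without H2, 0.82 without H3 and 0.64 without H4. H4 thus had the largest MAPRE3 value and the mildest loss of ZFX, and with 4 arrays no relation between both measures can be tested.

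MAPRE1, the widely expressed founding member, read 4968, 5312 and 5943 with H2, H3 and H4, against 5749 on the scrambled array. The scrambled value fell inside the range of the hairpins, with ratios of 86.4%, 92.4% and 103.4% (mean log2 difference -0.092 ± 0.13, SD, n = 3). The mean was -0.033 without H2 and -0.16 without H4. MAPRE2 read 1543, 2116 and 1878, against 2067, again with the groups overlapping. Its mean log2 difference of -0.18 ± 0.23 was -0.052 without H2 and -0.28 without H3. Relative to MAPRE1 on the same array, which removes any shift shared by a whole array, MAPRE3 differed by log2 values of 0.86, 0.75 and 0.94 (mean 0.85 ± 0.095, SD, n = 3). The same contrast with MAPRE2 gave 1.07, 0.61 and 1.13. MAPRE3 thus stood higher relative to both of its relatives with each hairpin. These contrasts use the same scrambled reading of MAPRE3 from which it was picked, so they are no separate support.

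CLIP1 encodes a plus-end tracking protein that links end-binding proteins and tubulin to dynactin. It read 2044, 2265 and 1832 with H2, H3 and H4, against 1986 on the scrambled array. The scrambled array lay between the hairpins, and the mean log2 difference was 0.038 ± 0.15 (SD, n = 3), smaller than the spread between them. It was -0.038 without H3 and 0.12 without H4.

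**Figure D2:**
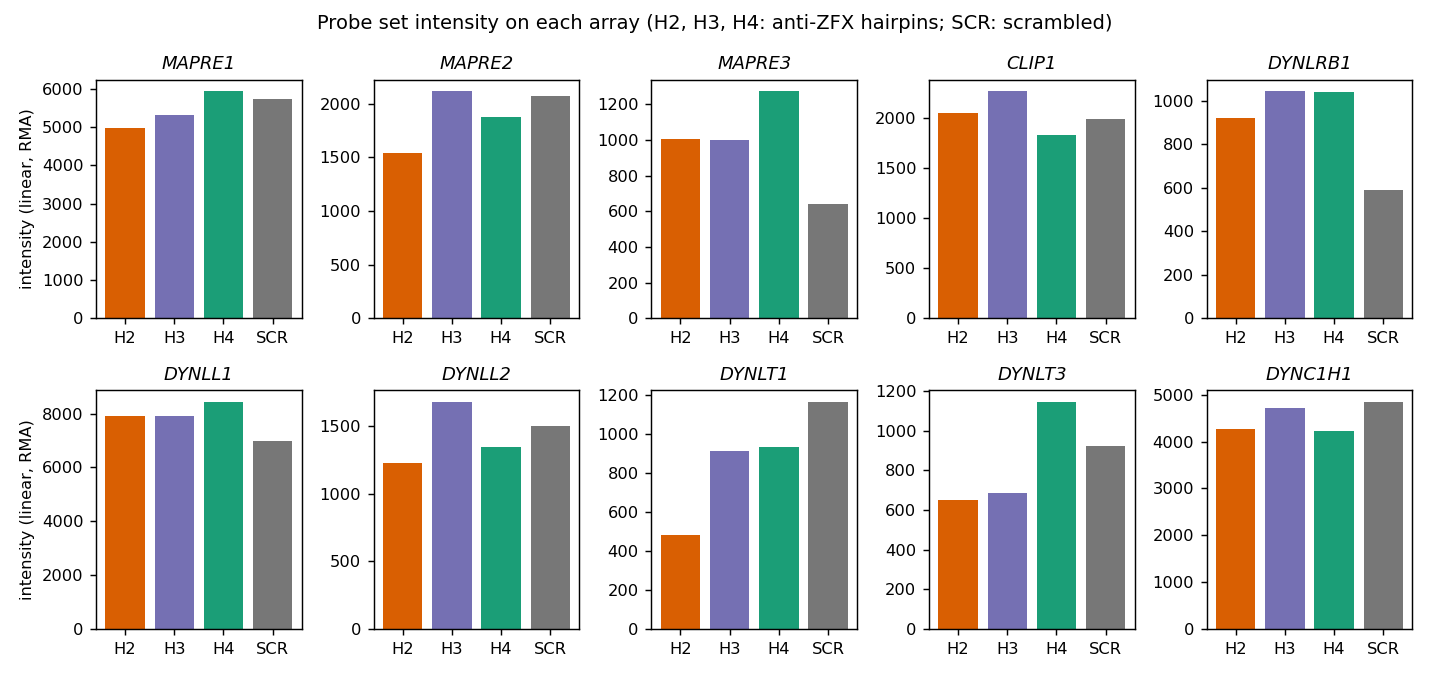
RMA intensity (linear scale, each panel with its own axis from 0) of the 10 genes on the H2, H3, H4 and scrambled (SCR) arrays. Each bar is 1 array; the scrambled bar is the lowest for MAPRE3, DYNLRB1 and DYNLL1 and the highest for DYNLT1 and DYNC1H1.

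Among the dynein chains, DYNLRB1 encodes the roadblock light chain. It read 922, 1044 and 1042 with H2, H3 and H4, against 591 on the scrambled array. All 3 hairpin arrays lay close together and well above the scrambled one, at 1.56-, 1.77- and 1.76-fold. The mean log2 difference was 0.76 ± 0.10 (SD, n = 3). That mean was 0.82 without H2, 0.73 without H3 and 0.73 without H4. The spread between hairpins was thus about as small as the 0.11 that is the median SD over all genes tested. DYNC1H1, the heavy chain with the motor domain, read 4272, 4726 and 4219, against 4851. The scrambled array was the highest, by little, with ratios of 88.1%, 97.4% and 87.0% (mean log2 difference -0.14 ± 0.090, SD, n = 3). Relative to the heavy chain on the same array, DYNLRB1 differed by log2 values of 0.82, 0.86 and 1.02 (mean 0.90 ± 0.10, SD, n = 3). This contrast uses the same scrambled reading of DYNLRB1 from which it was picked, so it is no separate support.

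The LC8 light chains are encoded by DYNLL1 and DYNLL2, and besides dynein they bind many unrelated proteins. DYNLL1 read 7921, 7917 and 8435 with H2, H3 and H4, against 6978 on the scrambled array. The groups did not overlap, and the mean log2 difference was 0.21 ± 0.053 (SD, n = 3). The dimmer of its 2 probe sets, however, read 3209, 3448 and 3263, against 3360, with the scrambled array inside the hairpin range and a mean log2 difference of -0.024 ± 0.054 (SD, n = 3). The accessions listed for the brighter probe set include all those of the dimmer one, and RefSeq names 7 pseudogenes after DYNLL1, so the direction for this gene remains uncertain. Where each probe set lies in the genome was not read here, so which of them reads DYNLL1 itself was not tested. DYNLL2 read 1223, 1678 and 1343, against 1500.0. H3 was above that level and H2 and H4 were below it. The mean log2 difference was -0.097 ± 0.23 (SD, n = 3), 0.001 without H2 and -0.23 without H3.

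The Tctex light chains are encoded by DYNLT1 and DYNLT3, the second of which is on the X chromosome. DYNLT1 read 480, 915 and 934 with H2, H3 and H4, against 1165 on the scrambled array. It was lower with all 3 hairpins, yet unequally, at 41.2%, 78.5% and 80.1% of the scrambled level. The mean log2 difference of -0.65 ± 0.55 (SD, n = 3) became -0.33 without H2. Of the 10 genes DYNLT1 was the 1 to stand 1.5-fold or more below scrambled with H2, as 5.61% of all genes did. With H3 and H4 none of the 10 did, against 1.14% and 2.17% of all genes. DYNLT3 read 650, 687 and 1147, against 925. It was lower with H2 and H3 (70.2% and 74.2%) and higher with H4 (123.9%), and its mean log2 difference of -0.21 ± 0.45 (SD, n = 3) was smaller than the spread between hairpins. That mean was -0.060 without H2, -0.10 without H3 and -0.47 without H4. RefSeq names 2 pseudogenes after DYNLT3 and 3 after MAPRE1, so these probe sets may also read related transcripts.

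The 2 Tctex genes also differed most between hairpins, a comparison that leaves the scrambled array out. DYNLT1 with H2 was at 52.5% of H3, the lower of the other hairpins, a log2 difference of -0.93. Of all genes tested, 1.97% were at least 1.5-fold lower with H2 than with both others. DYNLT3 with H4 was 1.67-fold above H3, the higher of the others, and 0.688% of all genes were at least 1.5-fold higher with H4 than with both others. DYNLT1 thus separated H2, and DYNLT3 separated H4, from the other knockdown arrays. In the other 8 genes the highest and lowest hairpin arrays were at most 0.46 apart on the log2 scale, as in DYNLL2. The median hairpin SD was 0.18 for the 10 genes and 0.11 for all genes tested. With 1 array per hairpin none of these differences can be tested.

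DYNLRB1 and DYNLT1 lay on opposite sides of the scrambled level on every hairpin array. Relative to DYNLT1, DYNLRB1 differed by log2 values of 1.92, 1.17 and 1.14 with H2, H3 and H4 (mean 1.41 ± 0.44, SD, n = 3). That contrast again uses the scrambled reading from which DYNLRB1 was picked and is no separate support. DYNLL1 relative to DYNLL2 differed by 0.48, 0.021 and 0.43 with the brighter DYNLL1 probe set, and by 0.23, -0.12 and 0.12 with the dimmer one, which turns the sign for H3. DYNLT1 relative to DYNLT3 differed by -0.77, 0.081 and -0.63, again with H3 on the other side.

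**Figure D3:**
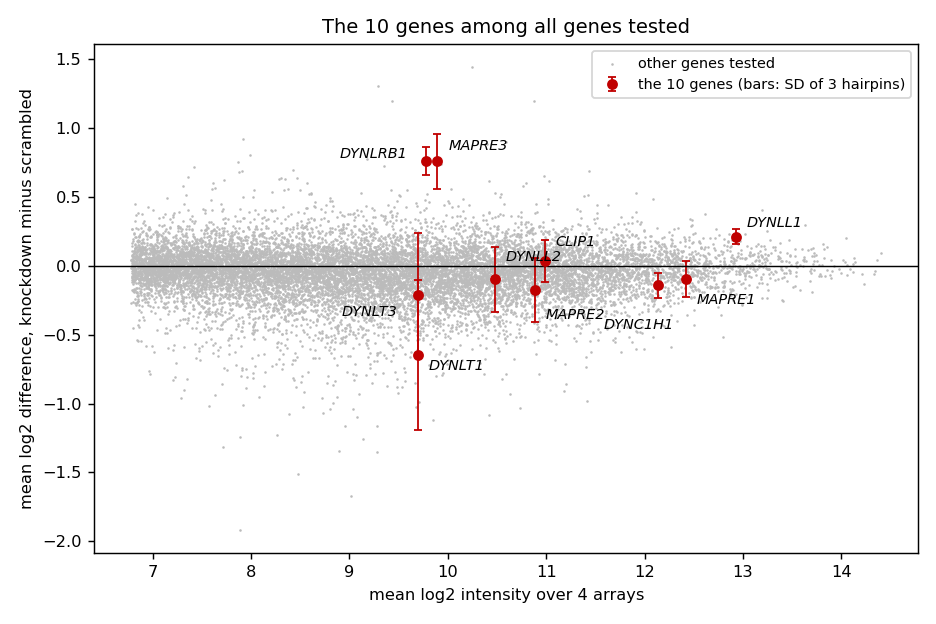
Mean log2 difference, knockdown minus scrambled (vertical axis), against mean log2 intensity over the 4 arrays (horizontal axis) for all 13813 genes tested (grey) and the 10 genes (red, bars are the SD of 3 hairpins). DYNLRB1 and MAPRE3 sit at 0.76 above the bulk of genes of like intensity, and DYNLT1 sits at -0.65 with the widest bar.

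The 2 genes highest above the scrambled array and the 1 furthest below it were set side by side at their promoters. RefSeq windows from 250 bases before to 50 bases after a gene's start (GRCh38.p14) were found for 9 of the 10 genes, 13 windows in all, and DYNLL2 had none in the table. The longest run of letters shared by a window of MAPRE3, of DYNLRB1 and of DYNLT1, reading both strands, is 11 bases, GCGCCTGCGCA or its reverse complement TGCGCAGGCGC. The 3 windows with it are shown 5′ to 3′ on the gene's strand, with that run in capitals. The MAPRE3 window is chr2:26970387-26970686 (plus strand), the DYNLRB1 window is chr20:34516172-34516471 (plus strand) and the DYNLT1 window is chr6:158644694-158644993 (minus strand).
MAPRE3: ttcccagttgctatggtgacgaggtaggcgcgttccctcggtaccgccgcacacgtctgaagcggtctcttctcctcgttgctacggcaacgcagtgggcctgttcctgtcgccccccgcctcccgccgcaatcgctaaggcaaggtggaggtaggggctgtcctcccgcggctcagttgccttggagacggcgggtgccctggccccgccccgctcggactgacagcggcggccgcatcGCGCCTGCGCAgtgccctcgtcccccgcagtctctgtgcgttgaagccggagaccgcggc
DYNLRB1: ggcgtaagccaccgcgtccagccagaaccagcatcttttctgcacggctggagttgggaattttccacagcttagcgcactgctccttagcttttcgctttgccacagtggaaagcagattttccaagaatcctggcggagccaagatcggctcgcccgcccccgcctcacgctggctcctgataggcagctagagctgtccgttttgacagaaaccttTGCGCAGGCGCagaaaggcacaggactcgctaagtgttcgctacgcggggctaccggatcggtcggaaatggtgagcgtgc
DYNLT1: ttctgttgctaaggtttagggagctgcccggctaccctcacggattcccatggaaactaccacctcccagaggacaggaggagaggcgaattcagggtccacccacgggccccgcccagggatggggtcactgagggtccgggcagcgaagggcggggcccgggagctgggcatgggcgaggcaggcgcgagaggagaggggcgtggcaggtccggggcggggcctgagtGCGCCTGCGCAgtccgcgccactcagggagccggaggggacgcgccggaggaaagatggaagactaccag
The capitals begin 10, 31 and 20 bases before the start of MAPRE3, DYNLRB1 and DYNLT1, and DYNLRB1 holds the reverse complement. These windows are rich in G and C, at 69.3%, 58.3% and 69.0% of their bases. Of all 35116 windows, 1.26% hold the run on either strand, and no window of the other genes described here does. It is close to the sequence that the transcription factor NRF1 is known to bind. The run was found by comparing these 3 genes, which lay on opposite sides of the scrambled level, so its presence in them is no result, and a match describes letters and not binding.

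ZFX is known to bind sequences with the core AGGCCT, which reads the same on both strands. Of the 13 windows, 1 holds it, against 10.9% of all windows, and none holds the longer AGGCCTAG or its reverse complement, against 0.994% of all windows. The 1 match, in capitals below, begins 194 bases before a start of MAPRE2, in chr18:35041163-35041462 (plus strand).
MAPRE2: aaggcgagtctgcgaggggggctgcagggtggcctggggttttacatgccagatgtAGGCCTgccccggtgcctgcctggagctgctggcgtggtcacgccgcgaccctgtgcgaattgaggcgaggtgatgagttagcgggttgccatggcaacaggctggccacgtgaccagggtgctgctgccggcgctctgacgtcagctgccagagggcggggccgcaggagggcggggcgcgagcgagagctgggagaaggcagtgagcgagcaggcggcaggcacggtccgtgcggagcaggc
MAPRE2 is one of the genes with hairpins on either side of the scrambled level. No window of MAPRE3 or DYNLRB1 holds either form, which concerns these letters in these windows and nothing further.

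To place the 10 genes in their pathways, 109 other genes of microtubule ends, dynein, dynactin, tubulin and microtubule-associated proteins were read, of which 92 were tested, 11 were below the filter and 6 had no probe set of their own. None of the 92 passed limma's test of knockdown against scrambled in either direction (adjusted p = 0.9998 for the smallest), as was so for all 13813 genes (0% called). At an unadjusted p under 0.05 there were 2 of the 92, both lower, against 3.23% of all genes. With every hairpin 9 of the 92 were higher (9.78%) and 28 were lower (30.4%), and 0 were at least 1.5-fold higher or lower. The share higher was under the 16.9% of all genes, and the share lower was near their 30.6%. The highest mean log2 difference among them was 0.27, of TUBA3E, below the 0.76 of DYNLRB1 and of MAPRE3. TUBA3E was dim, with a mean log2 intensity of 6.96 against the filter at 6.78. DYNLRB1 and MAPRE3 stood out in these arrays before they were picked, so that gap is no result.

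Of 23 other plus-end tracking genes tested, 1 was higher and 6 were lower with every hairpin, and the median of mean log2 differences was -0.044. STIM1, a calcium sensor of the endoplasmic reticulum that end-binding proteins bind at growing tips, read 306, 333 and 317 with H2, H3 and H4, against 403 (mean log2 difference -0.34 ± 0.062, SD, n = 3). The scrambled array was the highest of the 4. NAV2, a neuron navigator protein, read 443, 566 and 493, against 624.

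Of 9 other dynein subunits tested, 1 was higher and 2 were lower with every hairpin (median -0.019). DYNC1LI1, a light intermediate chain that binds cargo adaptors, read 3780, 3575 and 3663, against 3304. DYNC2I1, an intermediate chain of the dynein of cilia, read 511, 491 and 492, against 558. DYNLRB2, the sister gene of DYNLRB1, was below the filter, with log2 intensities of 5.43, 5.42 and 5.37 with H2, H3 and H4, against 5.45.

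In dynactin, the activator of dynein, 2 of 10 genes tested were higher and 1 was lower with every hairpin (median -0.043). DCTN6, of the pointed-end complex, was at a mean of 113.0% of the scrambled level, and DCTN1, the large subunit that meets both CLIP1 and end-binding proteins, was at 90.8%. Among 18 dynein regulators and adaptors 2 were higher and 4 lower (median 0.006). BICD2, a cargo adaptor, was at 115.0%, and NIN, a centrosomal adaptor, at 87.3%, or 92.3% without H2.

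Of 17 tubulin genes tested, 7 were lower and 1 was higher with every hairpin (median -0.059). The lowest were the neighbours TUBB2B, which read 1316, 1441 and 1347 with H2, H3 and H4, against 1817, and TUBB2A, which read 2298, 2555 and 2923, against 3380. These paralogues are close in sequence, so their probe sets may share signal. In lattice-binding and severing proteins 6 of 12 were lower and 2 higher (median -0.069). Over all genes tested 30.6% were lower and 16.9% higher with every hairpin, or 23.3% and 23.6% with arrays centred on their medians. Whether these short lists differ from those shares was not tested. MAP1A, a neuronal microtubule-associated protein, read 160, 424 and 405, against 556, the widest spread between hairpins in these lists (mean log2 difference -0.88 ± 0.80, SD, n = 3), with H2 far below the others as for DYNLT1. Without H2 the mean was -0.42. FIGN, the severing enzyme fidgetin, was at a mean of 82.3%. Of the axonemal dynein light chains, 2 of 3 were lower, DNAL1 at 73.1% and DNAL4 at 88.1%. DNAL1 was at 82.9% without H2, and DNAL4 at 92.8% without H4.

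**Figure D4:**
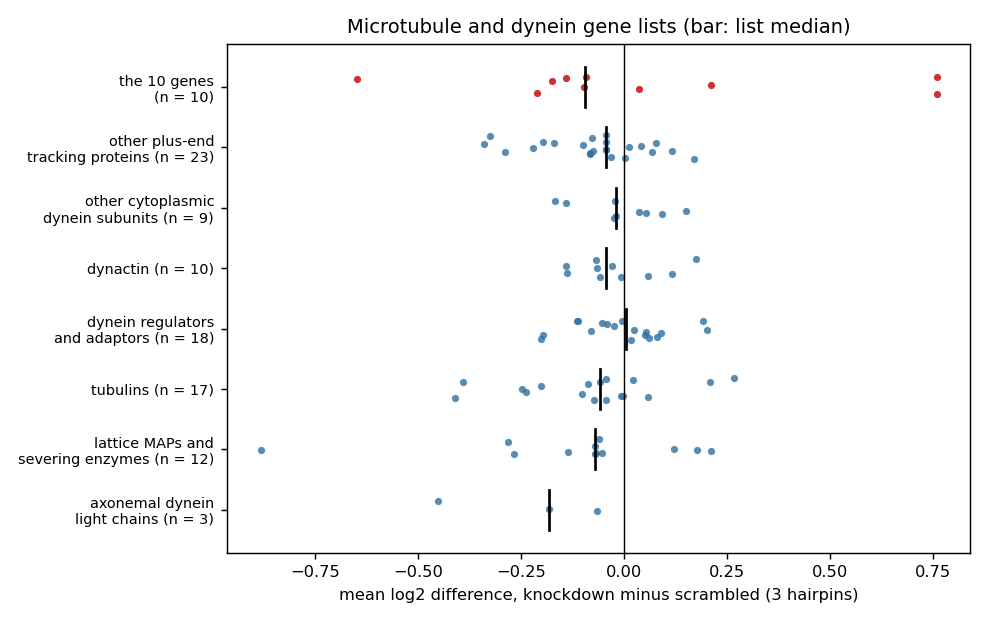
Mean log2 difference, knockdown minus scrambled (horizontal axis), of the 10 genes (red) and of the tested genes of 7 related lists (blue); each point is a gene, spread vertically for legibility, and the black bars are list medians. The 2 red points at 0.76 are DYNLRB1 and MAPRE3, and the highest value in the other lists is 0.27. Both genes stood out in these arrays before they were picked, so that gap is no result.

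The genes most like DYNLRB1 and MAPRE3 were sought by the Euclidean distance between 3 log2 differences (H2, H3 and H4 minus scrambled), over the genes tested outside the 10. The nearest to DYNLRB1 were FKBP14 (distance 0.23), HAS2 (0.26) and BSDC1 (0.26), and MAPRE3 itself lay at 0.25. The nearest to MAPRE3 were MDM2 (0.28), FKBP14 (0.32) and BSDC1 (0.35). MDM2 read 2296, 2041 and 2660 with H2, H3 and H4, against 1516 on the scrambled array, and like MAPRE3 it was highest with H4. FKBP14 read 3196, 3050 and 3106, against 1933. All these distances share the 1 scrambled array, so a low value on that array alone places genes near each other.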

How the data were processed

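RNA of 4 samples was read on 1 whole-transcript array each. The deposited values are intensities, 1 for each probe set on an array, made by the authors with RMA, per the submitters' processing notes. No version, setting or genome build is given in the sources used here. The intensities are on a linear scale (medians 226.0 to 232.3), so log2 was taken. Of 33297 probe sets, 19460 have exactly 1 gene symbol, and 19429 of these matched RefSeq by gene number. The brightest probe set per gene was kept, and genes below the 25th percentile of mean log2 intensity were left out.

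The 3 knockdown arrays, grouped by the genotype in the labels, were set against the scrambled array with limma 3.58.1 (R 4.3.3; lmFit, eBayes with intensity trend, Benjamini-Hochberg over 13813 genes, threshold 0.05, 2 residual degrees of freedom, the lone array assumed to vary like the others), tested on simulated data. The simulation gave all 4 arrays the same spread for each gene, so it could not test the assumption about the lone array. No p is given for the 10 genes. An exact permutation test of 1 array among 4 cannot go below p = 0.25. The number of arrays limits the precision, and no scan date or slide was analysed here. The genes and lists were chosen with earlier results of these data known. All 10 genes and ZFX are named, and from each list the 2 genes with the largest mean difference on 1 side with every hairpin, since none reached 1.5-fold. The 3 genes nearest in profile to DYNLRB1 and to MAPRE3 are named by rule. TUBA3E and DYNLRB2 were named after their values were seen, and the shared promoter run was sought after the windows were read. Other scalings, filters, probe set rules and left-out hairpins were tried. Tables were joined with pandas 2.3.3 in Python 3.11.15, and figures drawn with matplotlib 3.10.9.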

Additional observations from a re-analysis of the deposited data

How the results depend on the processing

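MAPRE3 and DYNLRB1 remained at least 1.5-fold above the scrambled array with every hairpin used under each of 9 alternatives (arrays centred on their medians, quantile normalization, cyclic loess, no filter, a filter at the 50th percentile, the mean of all probe sets of a gene, and each hairpin left out), with mean log2 differences of 0.64 to 0.82 and 0.73 to 0.82. For MAPRE3 and DYNLRB1 the filters and the probe set rule changed no value. Leaving out a hairpin cannot undo a rise seen with every hairpin. Only the median, quantile and loess scalings could therefore have failed for these genes. DYNLT1 ranged from -0.81 to -0.33 over the alternatives. CLIP1 changed sign without H3 (-0.038) and DYNLL2 without H2 (0.001), and DYNLL1 was at 0.095 as the mean of its probe sets. Without 1 hairpin, 3 to 4 of the 10 genes were above and 2 to 4 below the scrambled array with every hairpin left; the 4 below were MAPRE2, DYNLL2, DYNLT1 and DYNC1H1 without H3, and MAPRE1, DYNLT1, DYNLT3 and DYNC1H1 without H4. Over all genes, 7 were 1.5-fold above and 43 below with every hairpin. Without 1 hairpin these counts were 12 to 24 and 58 to 127, since fewer arrays had to pass. With the filter at the 50th percentile 28 were below, where fewer genes were tested. With 13813 genes tested, the median, quantile and loess scalings gave 9, 8 and 8 above and 32, 33 and 35 below, so these counts also depend on the scaling. Limma called 0 genes under all 10 alternatives, the 9 above and a fit without the intensity trend, with 248 to 691 genes at an unadjusted p under 0.05. With 1 scrambled array and a smallest adjusted p of 0.9998 in the fit as reported, these counts of 0 say nothing about stability. No paired analysis was possible because the labels give no replicate numbers and there is 1 scrambled array.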
